A study of Mus musculus with 4 samples.

Results

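The Krüppel-like factors measured here were Klf1, Klf2, Klf3, Klf4, Klf6, Klf9, Klf10 and Klf13, together with S1pr1, a receptor gene that Klf2 activates in lymphocytes. They were taken as every probe set annotated to exactly 1 of these 9 symbols, which gave 22 probe sets for 9 of the 12394 genes on the array. The genes were chosen by measured values of this same experiment, the log2 differences between its Cre-GFP and control arrays, so those differences are given as a description, without a test. Klf1, Klf2, Klf10 and S1pr1 had 1 probe set each, Klf4 had 2, Klf3, Klf6 and Klf13 had 3 each and Klf9 had 7.

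The 2 Cre-GFP arrays and the 2 control arrays came from Mll-AF4stop knock-in bone marrow, in which a silent fusion of Mll (Kmt2a) with AF4 (Aff1) can be switched on by Cre recombinase. All mice carried this allele and had received 5-fluorouracil (5-FU), which kills cycling blood cells, 5 days before their marrow was infected outside the body. The Cre-GFP cells received a retrovirus with Cre and the control cells a GFP control retrovirus, and GFP-positive cells were sorted after 2 days and grown for 14 days in lymphoid growth conditions. The 2 descriptions of the control virus conflict: MIG-Cre in the series text and GFP control in the sample labels, which were followed. If the control virus also held Cre, the comparison is not of an active with a silent fusion, and otherwise Cre itself and the fusion cannot be told apart. Neither the age of the mice nor the origin of replicate arrays (other animals, other cultures or the same RNA) is given in the labels, so the spread between arrays may be technical. Median intensities of the 4 arrays lay between 85.1 and 87.7, and precision is limited by having 4 arrays.

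Krüppel-like factors are transcription factors whose C-terminal zinc fingers bind GC-rich and CACCC-type DNA elements. Their N-terminal parts differ: Klf1, Klf2, Klf4 and Klf6 are mostly activators that recruit acetyltransferases, Klf3 binds the CtBP corepressors, and Klf9, Klf10 and Klf13 bind the Sin3 corepressor. In the lymphoid lineage Klf2 is known for keeping resting cells quiescent and for driving genes of cell trafficking, among them S1pr1, whose product senses sphingosine-1-phosphate (S1P) and lets lymphocytes leave tissues.

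The promoters of Klf2 and Klf3 are shown because Klf2 was the member that differed most, and because Klf3 held the most CACCC elements among these genes. Each sequence covers the 250 bases before the annotated start (RefSeq, GRCm38.p6, plus strand), at chr8:72318812-72319061 for Klf2 and chr5:64803271-64803520 for Klf3. Capitals mark CACCC on either strand (read as GGGTG on the other) and, in Klf2, the consensus element of the MEF2 factors.
Klf2: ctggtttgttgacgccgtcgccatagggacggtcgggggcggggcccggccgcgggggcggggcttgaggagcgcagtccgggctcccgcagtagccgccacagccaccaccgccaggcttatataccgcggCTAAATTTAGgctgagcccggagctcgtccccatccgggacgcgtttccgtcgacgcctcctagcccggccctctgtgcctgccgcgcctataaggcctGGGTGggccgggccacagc
Klf3: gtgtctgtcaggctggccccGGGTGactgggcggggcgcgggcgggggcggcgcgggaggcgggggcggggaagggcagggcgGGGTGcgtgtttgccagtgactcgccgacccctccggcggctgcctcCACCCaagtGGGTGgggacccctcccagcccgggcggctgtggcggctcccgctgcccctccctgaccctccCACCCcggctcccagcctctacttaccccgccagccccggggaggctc
In Klf2 the MEF2 match began 118 bases and the single CACCC match 19 bases before the start, without overlapping. Klf3 had 5 CACCC matches, which began 230, 167, 120, 111 and 48 bases before the start, and no MEF2 match. Of all 32851 promoters of this length in the table, 52.0% held CACCC on either strand, 0.667% held 5 or more matches and 1.69% held a MEF2 match. Promoters of 7 of the 9 genes were in the table, those of Klf1, Klf2, Klf3, Klf4, Klf6, Klf9 and Klf13. Of these, 5 had a CACCC match and 1 a MEF2 match; Klf1, Klf9 and Klf13 had 1 CACCC match each and Klf4 and Klf6 had none. A match is a string of letters, and no binding was measured.

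Klf2 was 2.37-fold lower in Cre-GFP cells than in control cells. Its probe set 1448890_at had log2 intensities of 5.40 and 5.14 in Cre-GFP 1 and 2, against 6.54 and 6.48 in control 1 and 2. The lower control array stood 1.08 above the higher Cre-GFP array, whereas arrays of the same group lay at most 0.26 apart. The difference was −1.24 ± 0.13 (limma's standard error, SE, n = 2 per group), with a 95% half-width of 0.33. Neither the SE nor the half-width allows for the choice of Klf2 by this difference, so they are not read as a test. Leaving out any 1 array put the difference between −1.37 and −1.11. Only 47 of the 20393 probe sets with 1 gene symbol, or 0.23%, had a difference at or below it, which describes why Klf2 was chosen. The signal was near the middle of the array in control cells, at percentiles 51.5 and 50.4 of all probe sets, and lower in Cre-GFP cells, at 29.8 and 26.7. Detection calls were not used here, and RMA, the method that made these values, normally compresses differences of dim probe sets. In these bulk samples, fewer cells with Klf2 transcript and less transcript per cell cannot be told apart.

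S1pr1, the S1P receptor that Klf2 activates directly in T cells, did not share that difference. It read 6.67 and 6.51 in Cre-GFP cells, against 6.69 and 6.59 in control cells. The groups overlapped, and the difference was −0.05 ± 0.14 (SE, n = 2 per group) with a 95% half-width of 0.33. That half-width is counted from the difference, not from 0, and is not a limit of detection. A change of moderate size in either direction could be missed at this precision. Without Cre-GFP 2 the difference was 0.03, and without Cre-GFP 1 it was −0.13. In both groups, array 1 read slightly above array 2.

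**Figure D1:**
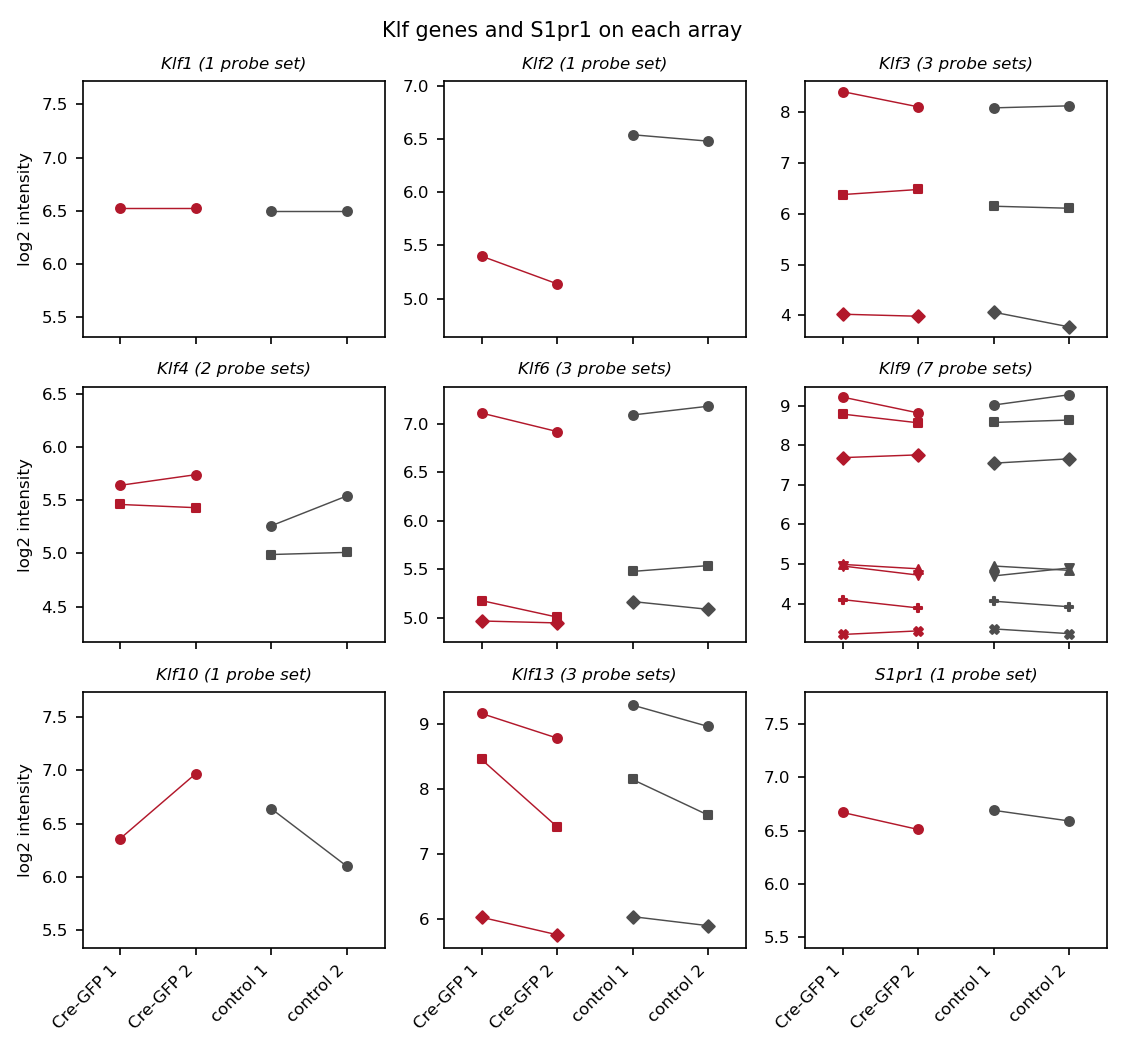
Log2 intensity of every probe set of the 8 Klf genes and S1pr1 (vertical axes) on the 2 Cre-GFP arrays (red) and the 2 control arrays (grey); marker shapes tell probe sets of a gene apart and lines join the arrays of a group. Klf2 stands at 5.40 and 5.14 in Cre-GFP against 6.54 and 6.48 in control, while S1pr1 is level across the 4 arrays.

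Among the other activators, Klf4 stood slightly higher in Cre-GFP cells on both of its probe sets. Klf4 is a close relative of Klf2, a factor of monocyte maturation and of epithelial and pluripotent cells that also restrains proliferation of B cells. Probe set 1417394_at read 5.64 and 5.74 in Cre-GFP cells, against 5.26 and 5.54 in control cells, a difference of 0.28 ± 0.13. Probe set 1417395_at read 5.46 and 5.43 in Cre-GFP cells, against 4.99 and 5.01 in control cells, a difference of 0.44 ± 0.10 (SE, n = 2 per group). Both Cre-GFP arrays were above both control arrays on each probe set, the opposite side from Klf2. Over all probe sets 15.4% were higher without overlap, and the 2 probe sets read the same gene on the same arrays. Klf4 was dim, below the median intensity on every array, and its 2 differences spanned 0.14 to 0.46 over the leave-one-out fits.

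Klf6, a widely expressed factor induced by growth and stress signals, had small and unequal negative differences, that of the brightest probe set near 0 on dropping 1 array. Its brightest probe set, 1427742_a_at, read 7.11 and 6.92 in Cre-GFP cells, against 7.09 and 7.18 in control cells, with overlapping groups and a difference of −0.12 ± 0.15 that shrank to −0.02 on dropping Cre-GFP 2 and reached −0.21 on dropping Cre-GFP 1. On 1433508_at the values were 5.18 and 5.01 in Cre-GFP cells, against 5.48 and 5.54 in control cells, a difference of −0.42 ± 0.11. The third, 1418280_at, read 4.97 and 4.95 in Cre-GFP cells, against 5.17 and 5.09 in control cells, a difference of −0.17 ± 0.10. The 2 dimmer probe sets thus had groups that did not overlap and the brightest had groups that did. The probe sets of Klf6 therefore disagree in size.

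Klf1, the erythroid factor that activates the adult beta-globin gene, was nearly identical on all arrays. It read 6.53 on each Cre-GFP array, against 6.50 on each control array. Its groups did not overlap, but by only 0.03 ± 0.12 (SE, n = 2 per group).

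Klf3, the CtBP-binding repressor that Klf1 activates in mouse erythroid cells and that competes with activators for CACCC elements, was the same or slightly higher in Cre-GFP cells. The brightest probe set, 1431630_a_at, read 8.41 and 8.11 in Cre-GFP cells, against 8.09 and 8.13 in control cells, a difference of 0.15 ± 0.18 with overlapping groups. That difference rested on Cre-GFP 1, since it was 0.00 without this array and 0.30 without Cre-GFP 2. On 1429360_at the values were 6.38 and 6.48 in Cre-GFP cells, against 6.15 and 6.11 in control cells, a difference of 0.30 ± 0.12 with groups that did not overlap. The dim 1421604_a_at differed by 0.09 ± 0.12, and by −0.06 without control 2.

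The Sin3-binding factors Klf9, Klf10 and Klf13 had overlapping groups on 10 of their 11 probe sets. Of these 11, 7 were of Klf9. Over all probe sets, 14.6% were lower and 15.4% higher in Cre-GFP cells without overlap, and nothing is read from the count. Klf9, a glucocorticoid- and thyroid hormone-induced repressor, read 9.22 and 8.82 in Cre-GFP cells, against 9.02 and 9.28 in control cells, on its brightest probe set, 1456341_a_at. The difference was −0.13 ± 0.21 there, and it was 0.07 without Cre-GFP 2. Over the 7 Klf9 probe sets the differences lay between −0.13 and 0.12, and the 1 with groups that did not overlap, 1428288_at, differed by 0.12 ± 0.15. The largest fold among the 7 was 1.09. Of the 22 probe sets, 3 lay in the lowest 20% of all probe sets on every array, of which 2 belonged to Klf9 and 1 to Klf3.

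Klf10, first described as an early gene of the TGF-beta response, varied more between arrays of a group than between the groups. It read 6.36 and 6.97 in Cre-GFP cells, against 6.64 and 6.10 in control cells. The difference of 0.29 ± 0.27 (SE, n = 2 per group) became 0.59 with Cre-GFP 1 removed and −0.02 with Cre-GFP 2 removed. Removing control 1 gave 0.56 and removing control 2 gave 0.02. Single arrays thus decided both its size and its sign.

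Klf13, a factor of T cell cytokine genes that is also active in erythroid and B cells, likewise varied within the groups. On 1436316_at it read 9.17 and 8.79 in Cre-GFP cells, against 9.30 and 8.97 in control cells, a difference of −0.16 ± 0.22. On 1432543_a_at the values were 8.46 and 7.42 in Cre-GFP cells, against 8.15 and 7.60 in control cells, a difference of 0.06 ± 0.37. Dropping Cre-GFP 1 turned this to −0.46, and dropping Cre-GFP 2 made it 0.58. On 1456030_at they were 6.02 and 5.75 in Cre-GFP cells, against 6.03 and 5.89 in control cells, a difference of −0.08 ± 0.14. Array 1 stood above array 2 in both groups on all 3 Klf13 probe sets, and within each group this gap was larger than the difference between the groups. The differences on 1436316_at and 1456030_at turned to 0.03 and 0.06 without Cre-GFP 2.

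Set against its family, Klf2 was the exception in size. With 1 probe set per gene, the brightest, the median difference of the other 7 Klf genes was 0.03, and the difference of Klf2 minus that median was −1.27 on the log2 scale. The 21 probe sets other than that of Klf2 differed by −0.42 to 0.44, with a median absolute difference of 0.12, against 0.10 over all probe sets. Klf2 was the 1 member probe set of 22 with an absolute difference of 0.5 or more, a size that 3.61% of all probe sets had. Groups did not overlap for 3 member probe sets lower and 5 higher in Cre-GFP cells, which is 1 and 2 genes by the brightest probe set. Over all probe sets 14.6% were lower and 15.4% higher without overlap, and over all genes 14.9% and 15.2%, and since these differences chose the members nothing is read from the counts. Over the whole table, limma found 0 of 20393 probe sets (0%) past an adjusted p of 0.05, with 976 (4.79%) at an unadjusted p under it, and an ordinary two-sample test found 1 (931 unadjusted).

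**Figure D2:**
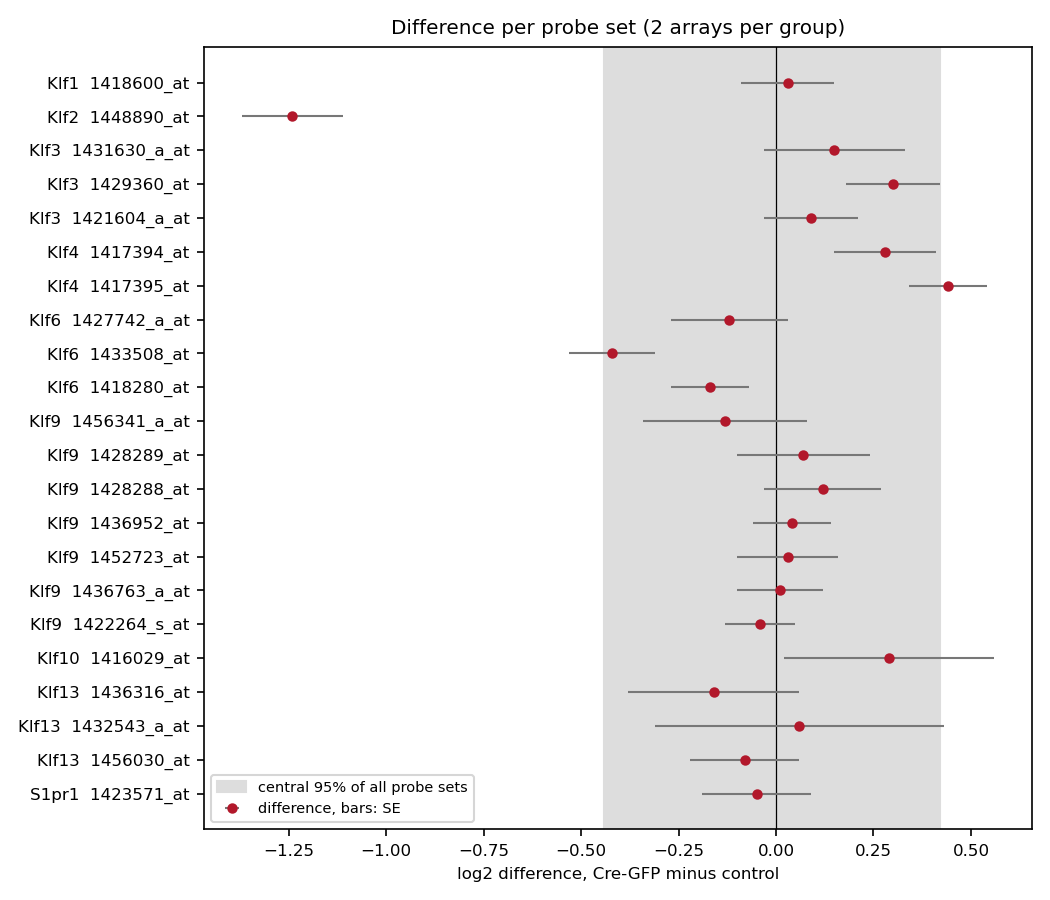
Log2 difference, Cre-GFP minus control (horizontal axis), of each of the 22 probe sets, with bars for limma's SE (n = 2 per group); the grey band holds the central 95% of all probe sets, from −0.44 to 0.42. Klf2 at −1.24 is far outside the band, 1 Klf4 probe set at 0.44 lies just past its upper edge, and the others fall within it.

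The remaining family members on the array, which are those left after the 8 Klf genes above had been picked with these differences known, had small differences. Of 19 other Klf and Sp genes looked for, 12 were measured (Klf5, Klf7, Klf12, Klf15, Klf16, Klf17, Sp1, Sp3, Sp4, Sp5, Sp6 and Sp7), and 0 passed limma's threshold over all probe sets (0 also at an unadjusted p under 0.05). Their differences ran from −0.17 to 0.40 with a median of 0.02, against a median of 0.00 over all genes. Groups did not overlap for 3 of the 12 on the higher side and 1 on the lower side, against 15.2% and 14.9% of all genes. Sp3, a ubiquitous GC-box factor, read 6.94 and 7.03 in Cre-GFP cells, against 6.78 and 6.38 in control cells, a difference of 0.40 ± 0.18 that became 0.20 on dropping control 2 and 0.61 on dropping control 1. Klf7, a factor that holds back lymphoid and myeloid progenitors when overexpressed in mice, read 6.37 and 6.31 in Cre-GFP cells, against 6.46 and 6.56 in control cells, a difference of −0.17 ± 0.12. Its 3 other probe sets differed by −0.24 to 0.26.

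The genes around Klf2 were then followed through lists written with general knowledge of Klf2 biology and with earlier results of these arrays known. Counts and medians of the lists are therefore given as descriptions only. Across these lists and the other family members, 0 of 134 genes passed limma's threshold over all probe sets, and 4.56% of all genes had an unadjusted p under 0.05. The quiescence and antiproliferative list, whose genes restrain growth in resting lymphocytes, had 10 of 14 measured genes lower in Cre-GFP cells and a median of −0.30, against 0.00 over all genes. Groups did not overlap for 6 of the 14 on the lower side (14.9% of all genes) and 0 on the higher side (15.2%), and 5 had an unadjusted p under 0.05 in limma. Dropping Cre-GFP 2 or control 2 took its median to −0.14 or −0.16, and dropping control 1 or Cre-GFP 1 to −0.20 or −0.28.

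Btg1, an antiproliferative cofactor of resting lymphocytes, read 10.08 and 10.27 in Cre-GFP cells, against 11.03 and 11.10 in control cells. Its difference was −0.89 ± 0.16 (adjusted p = 0.49 in limma), with −1.02 on its second probe set. Both Cre-GFP arrays were below both control arrays, as they were for the next 3 genes. Txnip, an inhibitor of glucose uptake and thioredoxin, differed by −0.98 ± 0.32, but by −0.53 without control 1 and by 0.13 on its other probe set. Slfn2, needed for T cell quiescence in mice, differed by −0.52 ± 0.18. Cdkn1a, which encodes p21 and is a reported Klf2 target, differed by −0.47 ± 0.19, and by −0.31 without control 2.

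Of 14 measured genes on the homing and trafficking list, 11 were lower in Cre-GFP cells and 3 higher. The 11 included Cr2 and Fcer2a, which are not homing receptors, at −0.12 and −0.02, and Itgal at −0.01. Klf2 supports several genes of the list in T and B cells, and the list median was −0.10. That median was −0.30 without the dimmest 40% of probe sets and −0.28 without shared probe sets. Shared here means a probe set name ending in _x_at, _s_at or _a_at, and these too had exactly 1 symbol in the annotation. Groups did not overlap for 6 of the 14 lower (14.9% of all genes) and 2 higher (15.2%). Since the list was written with earlier results known, nothing is read from these counts. Ccr7, the lymph node homing receptor, read 6.38 and 6.29 in Cre-GFP cells, against 7.30 and 6.88 in control cells, a difference of −0.75 ± 0.18 (adjusted p = 0.72 in limma). Selplg, the selectin ligand PSGL-1, differed by −0.61 ± 0.18. Cxcr4, which holds progenitors in the marrow, differed by −0.48 ± 0.20, and by −0.30 without Cre-GFP 1. Ccr9, a gut and thymus homing receptor, was dim and on the other side, at 0.24 ± 0.10, with −0.04 to 0.08 on its other probe sets and 0.03 when dim values were raised to each array's 20th percentile. Itgb7, an integrin chain that depends on Klf2 in mouse lymphocytes, was 1 of the 3 higher, at 0.20, named after its value was seen.

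The S1P pathway around S1pr1 was split. Of 14 measured genes, 8 were lower and 6 higher, and the median was −0.03. S1pr4, the S1P receptor of many blood cells, read 8.86 and 8.92 in Cre-GFP cells, against 9.19 and 9.36 in control cells, a difference of −0.38 ± 0.17 (adjusted p = 1 in limma). Spns2, an S1P exporter known chiefly from endothelium, was on the other side, at 7.07 and 7.17 in Cre-GFP cells, against 6.75 and 6.41 in control cells, a difference of 0.54 ± 0.17 (adjusted p = 0.87). Groups did not overlap for 1 gene on the higher side, Spns2, and 2 on the lower side, S1pr4 and the dim S1pr5, against 15.2% and 14.9% of all genes. The last differed by −0.20 ± 0.13, and by −0.00 when dim values were raised. Sgpl1, the lyase that degrades S1P, differed by −0.33 ± 0.22 with overlapping groups, with −0.05 on dropping Cre-GFP 1 and −0.62 on dropping Cre-GFP 2.

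**Figure D3:**
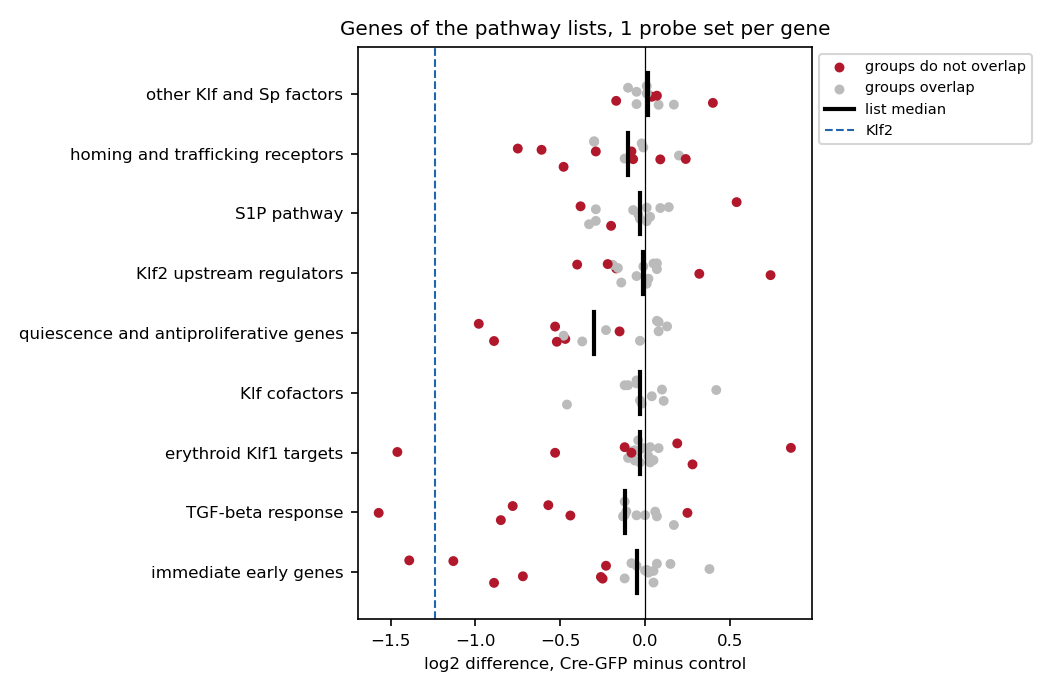
Log2 difference, Cre-GFP minus control (horizontal axis), of each gene in the 9 lists, 1 probe set per gene; red points have groups that do not overlap, black bars are list medians and the dashed line is Klf2 at −1.24. The quiescence list has the lowest median, −0.30, and single genes of the erythroid, TGF-beta and immediate early lists lie lower than Klf2 while those lists' medians stay between −0.12 and −0.03.

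Of 15 measured genes on the list of known Klf2 regulators, 8 were lower and 7 higher, with a median of −0.01. The list mixes activators such as Foxo1 with opposing genes such as Akt1, so a shared direction is not to be looked for. Its counts and median therefore do not tell whether the regulation of Klf2 differed. Groups did not overlap for 3 lower and 2 higher, against 14.9% and 15.2% of all genes. Mef2c, a MEF2 factor of lymphoid progenitors whose consensus element is marked in the Klf2 promoter above, was higher in Cre-GFP cells. It read 9.73 and 9.58 in Cre-GFP cells, against 9.21 and 8.62 in control cells, a difference of 0.74 ± 0.24 (adjusted p = 0.91 in limma) that was 0.45 without control 2, with 0.44 to 0.81 on its other probe sets. Foxo1, which activates Klf2 in T cells when PI3 kinase signalling is low, was lower, at 9.29 and 9.04 in Cre-GFP cells, against 9.40 and 9.72 in control cells. Its difference was −0.40 ± 0.20, or −0.24 without control 2, and its other probe sets lay between −0.38 and 0.07. Akt1, the kinase that removes Foxo factors from the nucleus, differed by 0.32 ± 0.19, and by 0.20 without control 2. Map3k2, an upstream kinase of the Erk5 pathway to MEF2, differed by −0.22 ± 0.11 in the dimmest 20% of each array, by −0.10 without Cre-GFP 2 and by −0.00 when dim values were raised.

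The corepressors and coactivators used by Klf factors had a median of −0.03. Groups stayed apart for 0 of 11 measured genes, against 14.9% of all genes lower and 15.2% higher. Ctbp2, a partner of Klf3, differed by 0.42 ± 0.54, and by −0.42 without control 2 and 1.26 without control 1. Hdac2, a deacetylase of the Sin3 complex, differed by −0.46 ± 0.36, with 0.03 on dropping Cre-GFP 1 and −0.95 on dropping Cre-GFP 2. Sin3b, a scaffold of that complex, and Fhl3, a coregulator that binds Klf3, differed by −0.12 ± 0.15 and 0.11 ± 0.15, with 0.08 for Sin3b without shared probe sets.

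The erythroid list, written around targets of Klf1, also held factors such as Gata1 and Tal1 that are not simply driven by it. Its median was −0.03 over 20 measured genes, with groups apart for 4 lower and 3 higher, close to the shares of all genes (14.9% and 15.2%). Car2, the carbonic anhydrase of red cells and of several progenitors, read 8.61 and 8.86 in Cre-GFP cells, against 10.21 and 10.18 in control cells, a difference of −1.46 ± 0.17 (adjusted p = 0.24 in limma). Nfe2, a factor of platelets and red cells, was on the other side, at 0.86 ± 0.24, or 0.52 without Cre-GFP 2. The alpha-globin gene Hba-a2 differed by −0.53 ± 0.20 (−0.27 without control 1), and the stem and erythroid factor Tal1, a dim gene, by 0.28 ± 0.09, or 0.14 when dim values were raised.

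The TGF-beta response, of which Klf10 is an early gene, had 10 of 15 measured genes lower and a median of −0.12, with groups apart for 5 lower (14.9% of all genes) and 1 higher (15.2%). Dropping Cre-GFP 2 turned the median to 0.01, dropping Cre-GFP 1 or control 1 made it −0.23 or −0.07, and averaging each gene's probe sets gave −0.05. Pmepa1, a feedback inhibitor of the pathway, differed by −1.57 ± 0.38 (adjusted p = 0.73 in limma), by −0.98 without control 2, and by −1.25 and −0.01 at the ends of its other probe sets. Id3, an inhibitor of E proteins in lymphocytes, differed by −0.78 ± 0.19. Tgfbr1, a receptor chain, and Skil, a corepressor of Smad factors, differed by −0.44 ± 0.16 and −0.57 ± 0.24. Their other probe sets differed by 0.01 to 0.24 and by −0.08, and Skil by −0.25 without control 2.

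Immediate early genes, which growth signals induce rapidly, had a median of −0.05. Groups were apart for 7 of 19 lower (14.9% of all genes) and 0 higher (15.2%). Dropping control 2 turned the median to 0.01, dropping control 1 or Cre-GFP 1 made it −0.17 or −0.10, and averaging each gene's probe sets gave −0.00. The 7 were Fos, Jun, Jund, Egr1, Ier5, Dusp1 and Zfp36, of which Jund, Ier5 and Zfp36, at −0.23, −0.25 and −0.26, were named because the count holds them. Egr1, a zinc finger factor of the same rapid class, read 7.38 and 6.91 in Cre-GFP cells, against 8.65 and 8.42 in control cells, a difference of −1.39 ± 0.21 (adjusted p = 0.40 in limma). Jun, Fos and the phosphatase Dusp1 differed by −1.13 ± 0.28, −0.89 ± 0.26 and −0.72 ± 0.16, and Jun and Fos by −0.70 and −0.57 without control 2.

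The genes whose profile over the 4 arrays was nearest to that of Klf2 were sought among 6193 genes at or above the median intensity, by the root mean square difference of log2 values after centring each gene on its mean. The 6 nearest were Pik3cg (0.10), Csf1 (0.11), Egr1 (0.12), Ddit4 (0.14), Gbp2b (0.15) and Rapgef3 (0.16), against a median of 0.65 over all genes compared. They were picked for this likeness, and a rank over 4 arrays says little beyond a shared group difference of similar size. Pik3cg, the gamma catalytic subunit of PI3 kinase, read 7.58 and 7.47 in Cre-GFP cells, against 8.61 and 8.77 in control cells. Csf1, the growth factor of macrophages, read 7.70 and 7.59 in Cre-GFP cells, against 8.87 and 9.06 in control cells. Its other probe sets differed less, by −0.71 to 0.00.

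Ddit4, a stress-induced inhibitor of mTORC1, differed by −1.01 ± 0.18, and Gbp2b, an interferon-inducible GTPase, by −1.29 ± 0.19. Rapgef3, a cAMP-activated exchange factor for Rap, differed by −1.07 ± 0.21, and by −0.53 without shared probe sets. Its other probe sets differed by −1.68 to −0.53. Among the members, the nearest profiles to Klf2 were those of Klf13 (0.55), Klf6 and Klf9 (0.57 each), and the farthest was that of Klf10 (0.84). S1pr1 stood at 0.60, and the median over all genes compared was 0.65. Every member was farther from Klf2 than the 6 genes named, but these were picked as the nearest of 6193, so nothing is read from that. Klf2 itself, among the dimmest 40% of probe sets, lies below the intensity limit of that search.

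**Figure D4:**
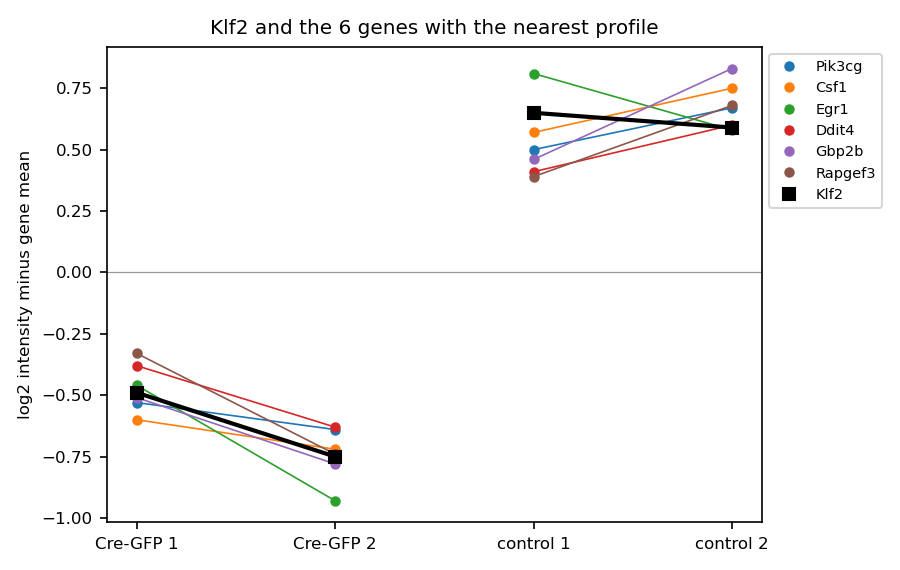
Log2 intensity minus each gene's mean over the 4 arrays (vertical axis) for Klf2 (black squares) and the 6 genes with the nearest profile; lines join the arrays of a group. All 7 genes lie below 0 on both Cre-GFP arrays and above 0 on both control arrays, with Klf2 at −0.49 and −0.75 against 0.65 and 0.59.

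Markers of several cell types differed in the same comparison, and their part in the Klf2 difference was not tested. The B lineage list gave the brightest summed signal, with a log2 sum of 15.41 to 15.42 in Cre-GFP cells and 15.59 to 15.81 in control cells. Of its 15 measured genes 12 were lower in Cre-GFP cells, 9 of them without overlap (14.9% of all genes), and 1 was higher without overlap (15.2%). Monocyte and macrophage genes summed to 11.94 to 12.53 in Cre-GFP cells and 10.64 to 11.73 in control cells, with 10 of 11 higher, 5 of them without overlap (15.2% of all genes), and 0 lower without overlap. Neutrophil genes summed to 11.92 to 12.16 in Cre-GFP cells and 10.71 to 12.39 in control cells, with 8 of 12 higher, and groups did not overlap for 4 higher (15.2% of all genes) and 3 lower (14.9%). Summed T lineage genes reached 10.47 to 10.54 in Cre-GFP cells and 10.60 to 10.75 in control cells (5 of 8 lower), and NK genes 9.40 to 9.89 and 9.07 to 9.74 (3 of 6 lower). Megakaryocyte genes (5 of 6 higher), mast cell and basophil genes (4 of 7 higher) and stroma and endothelium genes (9 of 11 higher) had sums between 8.37 and 9.82 on every array. Medians of these lists were −0.23 for B lineage, 0.37 for monocyte and macrophage, 0.41 for neutrophil, −0.03 for T lineage and for NK, 0.08 for megakaryocyte and for mast cell and basophil, and 0.05 for stroma and endothelium genes. Dropping Cre-GFP 1 or control 1 took the B lineage median to −0.52 or −0.44 and the monocyte and macrophage median to 0.15 or 0.23. For neutrophil genes, dropping Cre-GFP 2 or control 1 gave 0.24 or −0.20.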

How the data were processed

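The deposited values are probe set intensities, 1 table for the 4 arrays, on a linear scale; the authors made them with RMA per the submitters' processing notes, from 20 ng of total RNA amplified with a NuGen Ovation system per the labels' protocols. No version of RMA is stated. RMA normally equalizes the arrays, which hides any change common to most genes. Only the log2 was taken, with no further normalization. Of 22690 probe sets, 20393 had exactly 1 symbol in the platform annotation, 691 several and 1606 none; only the first kind was used. They were fitted together with limma 3.58.1 in R 4.3.3 (lmFit, eBayes with an intensity trend, two-sided, Benjamini-Hochberg over all 20393, threshold 0.05). The fit was also run on simulated arrays with normal noise and known shifts, which checks the calculation and not whether the real arrays meet its assumptions. Lists used the probe set with the highest mean of each of 12394 genes; 210 of 243 listed genes were measured. Named were all members, the whole family list, up to 4 genes per other pathway list by smallest p and the 6 nearest profiles to Klf2. Members and lists were chosen with earlier results of these data known. Alternatives were other normalizations, offsets, filters and probe set rules, a replicate block and leaving out each array.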

Additional observations from a re-analysis of the deposited data

How the results depend on the processing

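Klf2 stayed lower in Cre-GFP cells in each alternative that gave it a value, from −1.37 to −1.11 without single arrays and at −0.97 with 16 added before the log; it is among the dimmest 40% of probe sets, so leaving these out gave no value. Its distance to the median of the other 7 Klf genes ranged from −1.37 to −1.14 without single arrays and was −1.0 with 16 added. S1pr1 ranged from −0.13 to 0.03. Over the 22 member probe sets, 202 values under alternatives held 18 changes of sign, all on probe sets whose difference was within 0.29 of 0, and 6 moved by more than the spread between replicates.

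The number of probe sets past the threshold was 0 except for 25 without control 1, 1 without control 2 and 1 with an ordinary two-sample test. With the replicate number of the labels as a block it was 0 as well, and differences were the same by construction. Deviations of same-numbered arrays correlated at 0.36 over all probe sets, and with 2 arrays per group this does not show that the numbers pair them.

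Medians without single arrays ranged from −0.07 to 0.08 for other Klf and Sp factors, −0.13 to −0.08 for homing receptors, −0.11 to −0.02 for the S1P pathway, −0.13 to 0.07 for Klf2 regulators, −0.28 to −0.14 for quiescence genes, −0.06 to 0.04 for cofactors, −0.07 to 0.02 for erythroid genes, −0.23 to 0.01 for the TGF-beta response and −0.17 to 0.01 for immediate early genes. Without the dimmest 40% of probe sets the homing median was −0.30 and the immediate early median −0.12. Without shared probe sets the homing median was −0.28 and the S1P median −0.08. With the mean of a gene's probe sets the homing, TGF-beta and immediate early medians were −0.15, −0.05 and −0.00, and with dim values raised the last was −0.00. The causes were not tested.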
